A study of Homo sapiens with 16 samples.

Results

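FOXP1, FOXP2 and FOXP4 are the 3 forkhead box P genes described here, chosen by name from the 57736 genes of the count table and followed through all 16 libraries. The libraries come from H9, an established human embryonic stem cell line, taken through cortical differentiation by dual SMAD inhibition and collected at 4 stages, D0 (stem cells), D12, D30 and D70. At each stage 2 libraries were from cells given DMSO (control) and 2 from cells given 40 µM Thiamet-G (TMG), an inhibitor of O-GlcNAcase, the enzyme that takes the sugar O-GlcNAc off proteins. The comparisons ask whether holding O-GlcNAc high alters the level of each gene at a stage, and how each gene moves between stages. All groups share 1 cell line and 1 differentiation protocol, and the labels number the libraries of a group 1 and 2. The tag that names the treatment goes against the title in 8 libraries, and groups follow the titles here.

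FOXP proteins are transcription factors that carry a zinc finger, a leucine zipper through which they pair with each other, and a carboxy-terminal forkhead domain that binds DNA, and they act largely as repressors with CtBP and NuRD partners. FOXP1 is expressed in cortical and striatal projection neurons, in lymphocytes, heart and lung, and a stem-cell splice form with another forkhead exon has been linked to pluripotency. FOXP2, in which mutations cause a speech and language disorder, marks deep-layer cortical neurons, striatal neurons and Purkinje cells, and is also made in lung and other non-neural tissue. FOXP4 is broadly expressed in the embryo, neural progenitors included, and FOXP3 is the factor of regulatory T cells.

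On GRCh37, FOXP1 (ENSG00000114861) lies on the minus strand at chr3:71003844-71633129, FOXP2 (ENSG00000128573) on the plus strand at chr7:113726382-114333827, and FOXP4 (ENSG00000137166) on the plus strand at chr6:41514119-41570122. All 3 are protein-coding. The principal transcripts of the 3 genes held 0 identical windows of 25 bases in common, so a read of that length without mismatch belongs to 1 of them. Within the span of FOXP1 lie FOXP1-AS1 on the other strand, with 0 to 9 counts per library, and FOXP1-IT1 in an intron of the same strand, with 76 to 353. FOXP4-AS1 overlaps the start of FOXP4 and held 2 to 17 counts per library. Whether the counting used strand is not given in the sources used here, so reads of a gene and its antisense partner cannot be told apart where they overlap.

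The promoters of the principal starts are shown because FOXP1 and FOXP2 were both highest in D30 TMG library 2 (below), while FOXP4 was highest in a control library. Each runs from 250 bases before to 50 bases after a start in RefSeq (GRCh38.p14) and was placed on GRCh37 by an exact match at 1 position, chr3:71632830-71633129 for FOXP1, chr7:114054620-114054919 for FOXP2 and chr6:41513869-41514168 for FOXP4. Capitals mark TATTTAT, a motif that FOXP forkhead domains are known to bind, which was searched on both strands together with TGTTTAC.
FOXP1: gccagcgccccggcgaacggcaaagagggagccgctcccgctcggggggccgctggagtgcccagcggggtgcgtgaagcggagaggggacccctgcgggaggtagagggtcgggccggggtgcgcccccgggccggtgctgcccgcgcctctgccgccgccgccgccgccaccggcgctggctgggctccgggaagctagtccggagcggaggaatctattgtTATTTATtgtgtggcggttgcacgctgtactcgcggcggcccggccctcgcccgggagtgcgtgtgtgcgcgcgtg
FOXP2: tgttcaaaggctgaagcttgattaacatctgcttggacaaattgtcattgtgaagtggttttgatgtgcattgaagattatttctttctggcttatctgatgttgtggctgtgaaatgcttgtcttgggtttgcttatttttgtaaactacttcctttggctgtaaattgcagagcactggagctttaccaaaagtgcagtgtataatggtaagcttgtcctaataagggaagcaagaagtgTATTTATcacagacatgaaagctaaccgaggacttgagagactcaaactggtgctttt
FOXP4: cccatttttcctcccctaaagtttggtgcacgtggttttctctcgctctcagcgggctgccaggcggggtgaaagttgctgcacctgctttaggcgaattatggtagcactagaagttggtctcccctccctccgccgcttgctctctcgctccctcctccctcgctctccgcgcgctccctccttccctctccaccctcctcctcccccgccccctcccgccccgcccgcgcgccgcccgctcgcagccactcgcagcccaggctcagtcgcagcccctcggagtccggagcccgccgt
FOXP1 held TATTTAT 26 bases before the RefSeq start used here, and FOXP2 held it 8 bases before its own. The outer edge of the FOXP1 window, 71633129, is also the outer end of the annotated FOXP1 span. The whole FOXP1 window thus lies within that span. Of all windows of these genes in the table, TATTTAT was in 1 of 6 for FOXP1 and 1 of 2 for FOXP2, and another FOXP1 window held TGTTTAC. The 1 window of FOXP4 held neither motif. TATTTAT was present in 4.93% and TGTTTAC in 3.42% of 34796 promoters of the same length, and a match describes letters, not binding. G and C made up 75.0% of the FOXP1 window, 67.7% of that of FOXP4 and 38.7% of that of FOXP2, against a median of 58.7% over all promoters. FOXP2 is annotated with 32 transcripts. A primer pair of the study for chromatin immunoprecipitation, named for the FOXP2 start site, lies near another start than this one. Other primer sites of the study were not placed here. The region between those primers, chr7:113725492-113725596 on the plus strand, is shown with the primer sites in capitals.
FOXP2 primer region: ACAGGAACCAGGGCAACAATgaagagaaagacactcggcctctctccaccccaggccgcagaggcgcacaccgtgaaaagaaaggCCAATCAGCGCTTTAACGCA
It ends 786 bases before the first annotated start of FOXP2, and 329274 bases before the principal start above. The RNA counts are summed over the gene and do not tell which start, or which forkhead exon of FOXP1, was used.

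Across the 16 libraries FOXP1 ranged from 32.6 to 281 counts per 1000000 counts of the TMM library size (CPM), FOXP2 from 1.11 to 56.0 CPM and FOXP4 from 21.3 to 215 CPM. The raw counts behind them were 527 to 2965 for FOXP1, 16 to 592 for FOXP2 and 345 to 4292 for FOXP4, in libraries of 10334908 to 19836878 counts. All 3 passed the filter on low counts, as did 24249 genes in all. FOXP3 stood at 0.379 to 1.97 CPM, or 4 to 40 counts, and appears below only beside the 3 genes and among the other forkhead genes. Per kilobase of the principal transcript, the FOXP1 level was 2.70 to 44.2 times the FOXP2 level, and the FOXP4 level was 2.30 to 110.1 times it, so FOXP2 was the lowest of the 3 in every library. FOXP1 and FOXP4 changed places. FOXP4 was the lower per kilobase in both D0 control libraries, where the FOXP1 level was 1.28 and 1.53 times the FOXP4 level, and the higher in both D0 TMG libraries, where FOXP1 was at 0.806 and 0.739 times its level. FOXP4 was the higher in all 4 D12 libraries, with FOXP1 at 0.401 to 0.595 times its level. FOXP4 was the lower again in D30 TMG library 2, D70 control library 2 and D70 TMG library 2, with FOXP1 at 1.27, 1.17 and 1.55 times its level. Per kilobase of coding sequence these orders held. The D0 TMG libraries were then nearer parity, with FOXP1 at 0.969 and 0.889 times the FOXP4 level.

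**Figure D1:**
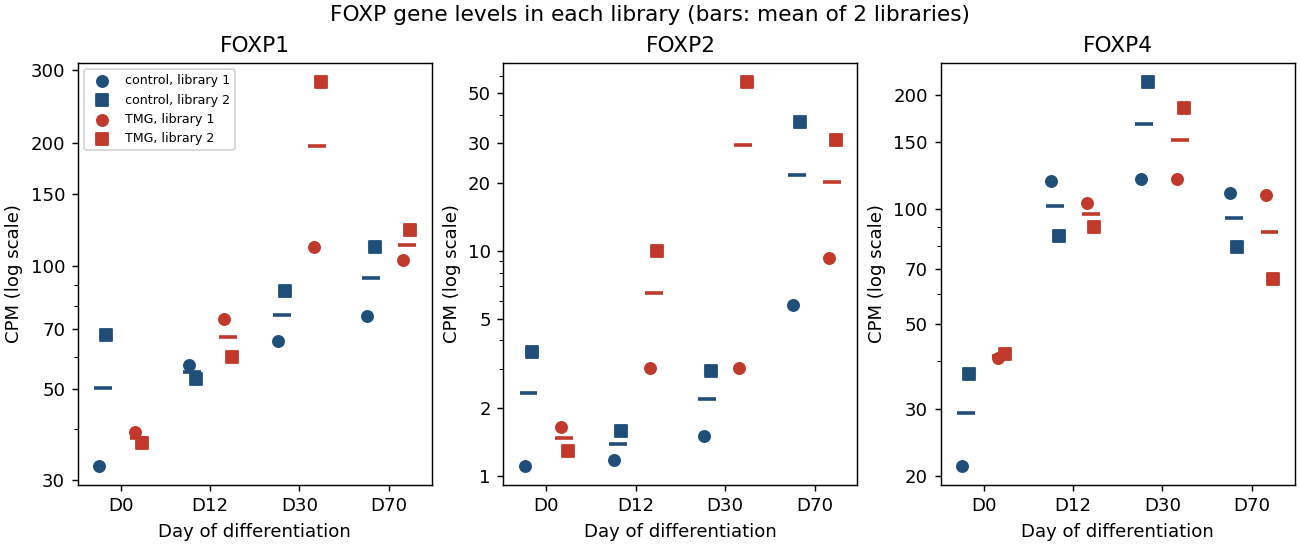
Level of FOXP1, FOXP2 and FOXP4 in CPM (log scale, a separate range for each gene) in each of the 16 libraries by stage, control in blue and TMG in red, with circles for library 1, squares for library 2 and bars for the mean of 2 libraries. FOXP4 is above its D0 range at every later stage, and the highest FOXP1 and FOXP2 values, 281 and 56.0 CPM, are both D30 TMG library 2.

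FOXP4 rose from D0 to each later stage in the control cells. Its level in the control libraries was 21.3 and 37.1 CPM on D0, 119 and 85.4 CPM on D12, 119.8 and 215 CPM on D30, and 110.1 and 79.5 CPM on D70. Every later control library was above both D0 control libraries. Control FOXP4 was 3.50-fold higher on D12 than on D0 (log2 fold change 1.81 ± 0.39 SE, n = 2 per group, adjusted p = 0.0116 by edgeR), and 1 of 3 members passed in this comparison, where 6.97% of genes tested rose. By D30 the difference from D0 was 5.74-fold (2.52 ± 0.40 on the log2 scale, adjusted p = 0.00119), beside 14.0% of genes that rose. On D70 it was 3.25-fold (1.70 ± 0.38, adjusted p = 0.00826), with 15.0% of genes higher. Without D0 control library 1 or D12 control library 1 the D12 rise missed the threshold (1.49 and 1.57, adjusted p = 0.0900 and 0.0745), and without D0 control library 1 the D70 rise did (1.38, adjusted p = 0.0697).

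In the TMG cells FOXP4 stood at 40.8 and 41.7 CPM on D0, 104 and 90.1 CPM on D12, 120.0 and 184 CPM on D30, and 109 and 65.6 CPM on D70. These again put every later library above both D0 libraries. The D30 level was 3.69-fold that of D0 (1.88 ± 0.39, adjusted p = 0.00555), where 13.4% of genes rose. The D12 level was 2.35-fold that of D0 (1.23 ± 0.38, adjusted p = 0.0482), where 7.24% of genes rose, and leaving out any 1 of the 4 libraries ended this call (adjusted p from 0.110 to 0.213). Adding the replicate number to the fit as a block ended it too. The D70 difference from D0, 1.08 ± 0.38, had an adjusted p of 0.0523 and 0.0460 with RLE in place of TMM scaling. No neighbouring pair among D12, D30 and D70 passed in either arm for FOXP4, the log2 differences being between -0.82 and 0.72. From lowest to highest, its stages ran D0, D70, D12 and D30 by the mean of each arm. D0 and D70 passed as neighbours in this order in control by edgeR. In TMG no neighbours passed by edgeR with TMM scaling, while RLE scaling and DESeq2 each called D70 over D0.

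FOXP1 was at 32.6 and 68.0 CPM in the D0 control libraries, 57.2 and 53.1 CPM on D12, 65.4 and 86.6 CPM on D30 and 75.4 and 111 CPM on D70. The D0 control libraries lay farther apart than those of D12 and enclosed both of them. No difference between stages passed in the control cells. The largest, D70 over D0, was 0.89 ± 0.42 on the log2 scale (adjusted p = 0.131). In the TMG cells FOXP1 stood at 39.3 and 36.9 CPM on D0, 74.0 and 60.0 CPM on D12, 111 and 281 CPM on D30 and 103 and 122 CPM on D70. It rose 5.14-fold from D0 to D30 in these cells (2.36 ± 0.44, adjusted p = 0.0034), among the 13.4% of genes that rose. Without D30 TMG library 2 the value was 1.54 and kept its call. From D0 to D70 it rose 2.96-fold (1.56 ± 0.43, adjusted p = 0.0202), beside 14.9% of genes, but the call was lost without either D0 TMG library or without D70 TMG library 2 (adjusted p from 0.0593 to 0.120). Both arms put the mean of FOXP1 lowest on D0. The D30 and D70 groups of the same arm overlapped in both arms.

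FOXP2 was low until D30 in the control cells. Its control level was 1.11 and 3.57 CPM on D0 (18 and 51 counts), 1.18 and 1.59 CPM on D12, 1.50 and 2.91 CPM on D30, and 5.72 and 37.5 CPM on D70. Both D70 libraries were above all 6 earlier control libraries, but they differed 6.55-fold from each other. The D70 difference from D0 was 3.21 ± 1.29 on the log2 scale (adjusted p = 0.0838), from D12 3.96 ± 1.34 (adjusted p = 0.0821) and from D30 3.26 ± 1.30 (adjusted p = 0.219). Without D70 control library 2 these came to 1.31, 2.03 and 1.31. All 3 passed by DESeq2 (adjusted p of 0.0152, 0.00445 and 0.0448), where 18.7%, 11.6% and 4.46% of genes were called higher. With the replicate number added to the edgeR fit as a block, the differences from D0 and D12 also passed.

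In the TMG cells FOXP2 stood at 1.65 and 1.29 CPM on D0, 3.01 and 9.94 CPM on D12, 3.01 and 56.0 CPM on D30, and 9.24 and 31.2 CPM on D70. Both libraries of each later stage were above both of D0. The D30 rise over D0 passed (4.33 ± 1.36 on the log2 scale, or 20.1-fold, adjusted p = 0.0376). Without D30 TMG library 2 the value was 1.04 with an adjusted p of 0.581. The call was also lost without D0 TMG library 1 or 2 (4.53 and 4.15, adjusted p = 0.168 and 0.192). The D70 difference from D0 was 3.78 ± 1.33 (adjusted p = 0.0549, and 0.00339 by DESeq2, which called 19.1% of genes higher). It was 2.66 without D70 TMG library 2, and it passed by edgeR with the replicate number as a block. Ordered by group mean, FOXP2 ran from D12 control (1.38 ± 0.29 CPM, SD, n = 2) through D0 TMG (1.47 ± 0.25), D30 control (2.21 ± 0.99), D0 control (2.34 ± 1.74), D12 TMG (6.48 ± 4.90), D70 TMG (20.2 ± 15.5) and D70 control (21.6 ± 22.5) to D30 TMG (29.5 ± 37.5). The SD of the last 3 groups is as large as 0.767 to 1.27 times their mean, so no neighbours in this order are separated by more than their spread.

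**Figure D2:**
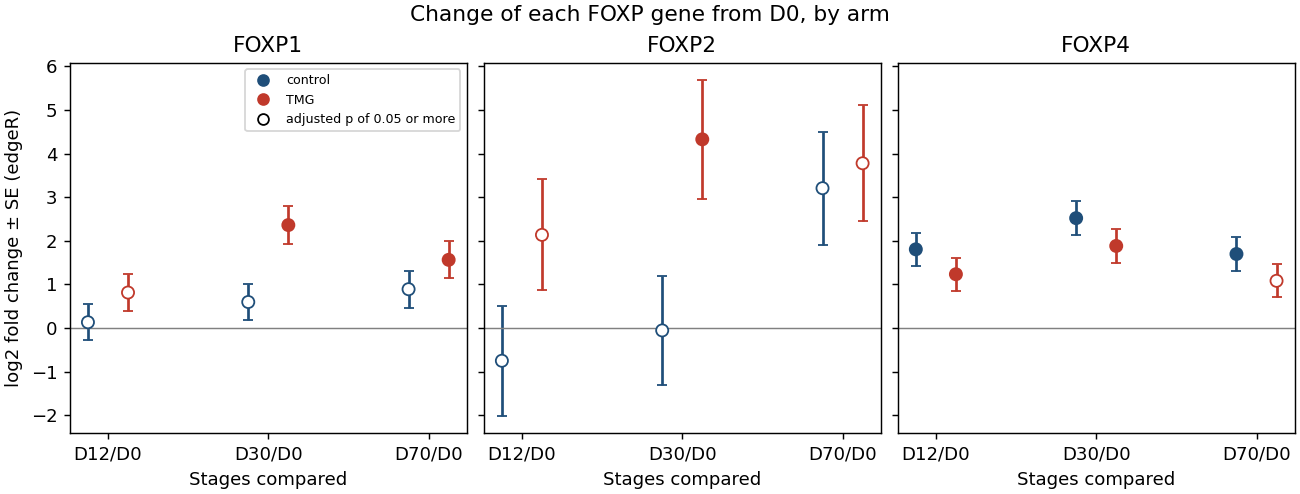
Log2 fold change of each gene from D0 to D12, D30 and D70 (points) with its SE (bars) from the edgeR fit of 16 libraries, control in blue and TMG in red, filled where the adjusted p was under 0.05 and open otherwise. FOXP4 is filled in 5 of 6 positions, FOXP1 in 2, both of them TMG, and FOXP2 in 1, the D30 point of TMG at 4.33 ± 1.36.

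None of the 3 genes passed the test of TMG against control at any stage by edgeR. On D30, FOXP1 was at 65.4 and 86.6 CPM in control and 111 and 281 CPM in TMG, and FOXP2 was at 1.50 and 2.91 CPM in control and 3.01 and 56.0 CPM in TMG. FOXP4 was at 119.8 and 215 CPM in control and 120.0 and 184 CPM in TMG. The TMG libraries lay above both control libraries for FOXP1 and FOXP2, by a wide margin only in library 2 for FOXP2, and overlapped the control libraries for FOXP4. FOXP1 differed by 1.36 ± 0.42 on the log2 scale (unadjusted p = 0.00835, adjusted p = 0.263 by edgeR) and FOXP2 by 3.71 ± 1.32 (unadjusted p = 0.0171, adjusted p = 0.310). FOXP4 differed by -0.14 ± 0.37 (adjusted p = 0.927). No gene of the 24249 was called on D30 by edgeR (0.00%), while 7.10% of genes were higher at an unadjusted p under 0.05, as were 2 of the 3 members. DESeq2 called 597 genes, or 2.46%, FOXP2 among them (adjusted p = 0.0341) but not FOXP1 (adjusted p = 0.0651).

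The size of the D30 differences depended on D30 TMG library 2. Leaving it out took FOXP2 from 3.71 to 0.43 and FOXP1 from 1.36 to 0.55. Leaving out D30 TMG library 1 instead gave 4.63 for FOXP2 and 1.88 for FOXP1 (adjusted p = 0.0911 and 0.0558). Between libraries with the same number, FOXP2 was 2.00 times as high in TMG as in control for number 1 and 19.3 times for number 2, and FOXP1 was 1.70 and 3.24 times as high. FOXP4 was 1.00 and 0.855 times as high.

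On D12 FOXP2 was at 1.18 and 1.59 CPM in control and 3.01 and 9.94 CPM in TMG, with both TMG libraries above both controls (2.22 ± 1.27, adjusted p = 1.0). The difference was 1.11 without D12 TMG library 2 and 2.84 without library 1. FOXP1 also lay higher in both TMG libraries, 74.0 and 60.0 against 57.2 and 53.1 CPM (0.28 ± 0.42, adjusted p = 1.0). Having both TMG libraries above both controls was common, at 17.8% of genes on D12 and 23.1% on D30, and 2 of the 3 members showed it at each of these stages. FOXP4 overlapped on D12 (-0.075 ± 0.37). On D0 FOXP1 and FOXP2 in TMG lay between the 2 control libraries, with differences of -0.40 ± 0.42 and -0.67 ± 1.27 that changed sign without D0 control library 2 (0.23 and 0.40). FOXP4 was above both D0 controls in both TMG libraries (0.50 ± 0.38, adjusted p = 1.0), which 19.7% of genes showed. D70 gave 0.27 ± 0.42 for FOXP1, -0.096 ± 1.17 for FOXP2 and -0.12 ± 0.37 for FOXP4, with overlapping groups for each. Adjusted p-values on D70 were between 0.958 and 0.997. No gene was called by edgeR on D0, D12 or D70 (0.00% at each), and 1.26%, 2.48% and 5.49% had an unadjusted p under 0.05, none of the members among them. DESeq2 called 5, 11 and 55 genes at these stages (0.0206%, 0.0454% and 0.227%), also without a member. Without D70 TMG library 1, 799 genes were called on D70 by edgeR, none of the members among them.

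**Figure D3:**
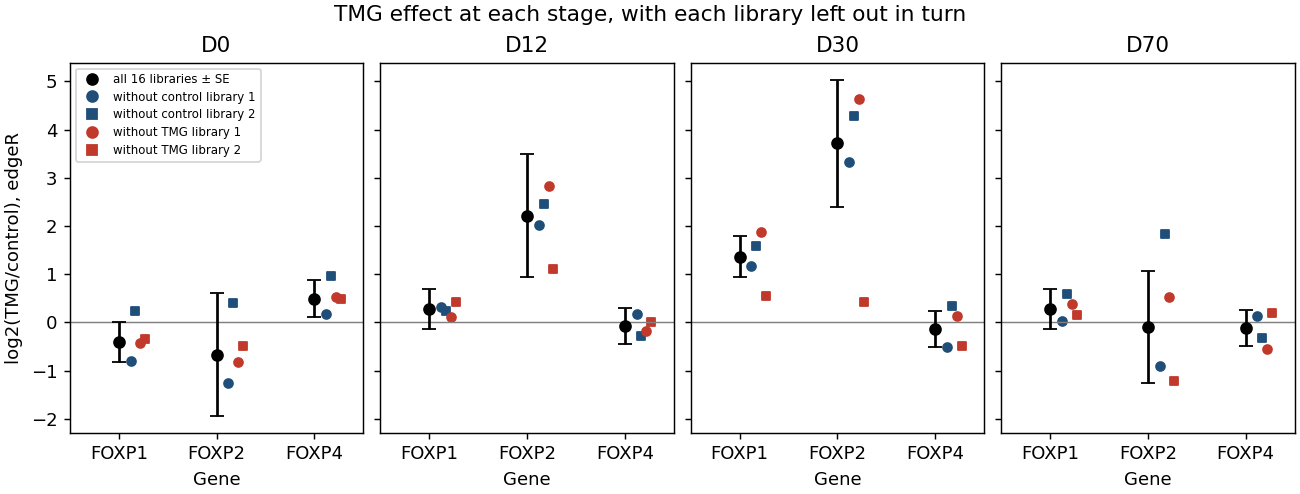
Log2 fold change of TMG over control for each gene at each stage from the edgeR fit of 16 libraries (black points with SE), beside the value with each library of the stage left out (coloured circles for library 1, squares for library 2). Leaving out D30 TMG library 2 takes FOXP2 to 0.43 and FOXP1 to 0.55.

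Whether the TMG difference itself varied with stage was tested as an interaction. For FOXP1 the D30 difference exceeded that of D0 by 1.76 ± 0.60 on the log2 scale (unadjusted p = 0.0131, adjusted p = 0.976). For FOXP2 it exceeded that of D0 by 4.38 ± 1.80 (unadjusted p = 0.0339, adjusted p = 0.976), and the D70 difference less that of D30 was -3.81 ± 1.73 (unadjusted p = 0.0501, adjusted p = 1.0). Without D30 TMG library 2 these FOXP2 values came to 1.09 and -0.52, and the FOXP1 value to 0.94. For FOXP4 the D30 and D0 differences were -0.64 ± 0.53 apart (adjusted p = 0.978). No member passed. Over all genes 0 were called in the D30 against D0 interaction by edgeR and 31 by DESeq2, and the shares at an unadjusted p under 0.05 were 4.94% there and 4.03% for D70 against D30.

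From D12 on, the FOXP2 values followed the number of the library. On D0 they did not, with library 2 the higher in control (3.57 against 1.11 CPM) and the lower in TMG (1.29 against 1.65 CPM). In every group of D12, D30 and D70, in both arms, library 2 held more FOXP2 than library 1, by 1.35-fold in D12 control, 3.30-fold in D12 TMG, 1.94-fold in D30 control, 18.6-fold in D30 TMG, 6.55-fold in D70 control and 3.37-fold in D70 TMG. This pattern, and the choice of D12 to D70, came after the values were seen, and 3.70% of genes tested shared it. FOXP1 was higher in library 2 in 4 of the 6 groups and FOXP4 in 2 of the 6. FOXP3 was higher in 0 of the 6.

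The 3 libraries with the most FOXP2 were also the 3 with the most mesenchymal marker RNA. The summed level of 8 mesenchymal and stromal markers (COL1A1, COL1A2, COL3A1, LUM, DCN, POSTN, PDGFRB and TWIST1) was 168 to 186 CPM on D0, 1140.2 to 1905 CPM on D12, 4516 to 5776 CPM in 3 of the 4 D30 libraries and 30054 CPM in D30 TMG library 2. On D70 it was 7593 and 45574 CPM in control and 3843 and 59708 CPM in TMG. The 3 libraries with the highest sums, D70 TMG 2, D70 control 2 and D30 TMG 2, were the 3 libraries highest in FOXP2, at 31.2, 37.5 and 56.0 CPM. FOXP1 had 3 of its 4 highest values there. Below these 3 libraries the orders parted. D12 TMG 2 and D70 TMG 1 ranked 4 and 5 in FOXP2 (9.94 and 9.24 CPM) but 9 and 8 in the marker sum. D30 TMG 1 ranked 5 in the sum and 9 in FOXP2 (3.01 CPM). TWIST1, a transcription factor of mesenchyme, stood at 0.0940 to 6.59 CPM in the other 13 libraries and at 117, 35.0 and 44.9 CPM in D30 TMG 2, D70 control 2 and D70 TMG 2. On D70, 7 of the 8 markers were higher in both libraries 2 than in both libraries 1, a pattern whose share over all genes is not given here. On D30, 4 of the 8 were higher in both TMG libraries than in both controls, as were 23.1% of all genes tested. FOXP4 was lowest of the D12 to D70 libraries in D70 TMG 2 (65.6 CPM) and D70 control 2 (79.5 CPM). In bulk RNA fewer cells of a type and less RNA per cell cannot be told apart, and the part of mesenchymal cells in the FOXP1 and FOXP2 results was not tested.

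**Figure D4:**
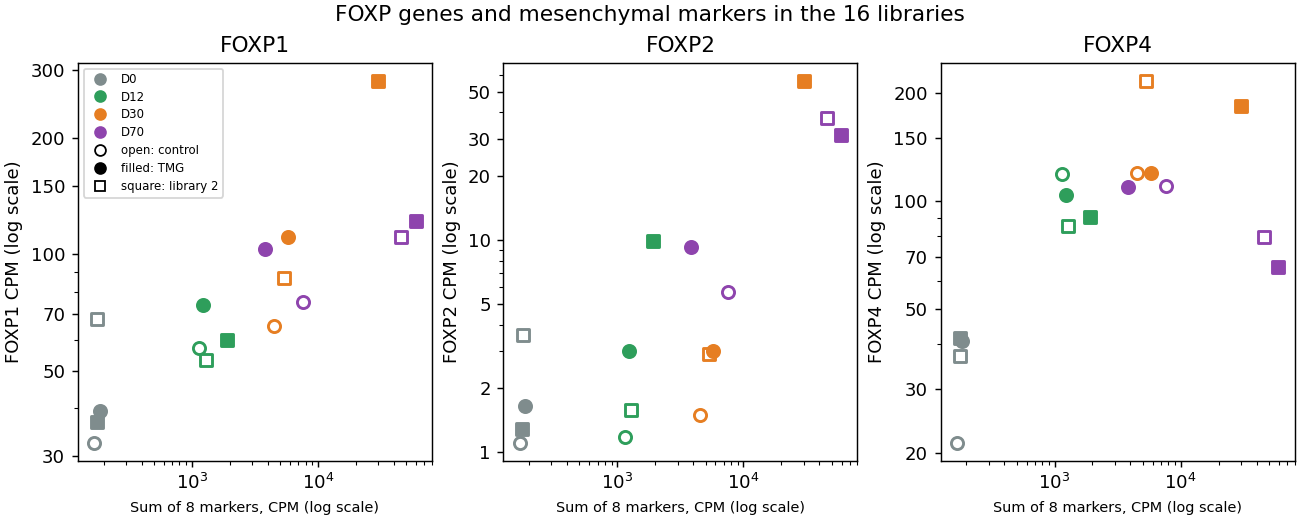
CPM of each gene against the summed CPM of 8 mesenchymal markers in the 16 libraries (both axes on a log scale, with a separate vertical range for each gene), coloured by stage, open for control, filled for TMG and square for library 2. The 3 libraries with the highest marker sums, from 30054 to 59708 CPM, hold the 3 highest FOXP2 values, 31.2 to 56.0 CPM, and 2 of them hold the lowest FOXP4 values after D0.

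Neuronal markers of the cell types known for FOXP2 were measured in the same libraries. The summed level of 9 pan-neuronal markers was 306 to 339 CPM on D0, 490.0 to 847 CPM on D12, 574 and 687 CPM in D30 control, 831 and 1038 CPM in D30 TMG and 244 to 1271 CPM on D70, where the libraries numbered 2 held 602 CPM in control and 244 CPM in TMG. D70 TMG library 2, with 31.2 CPM of FOXP2, held 1.29 CPM of STMN2, a neuronal tubulin-binding protein, and 0.0925 CPM of TBR1, a defining factor of deep-layer cortical neurons. D70 TMG library 1, with 9.24 CPM of FOXP2, held 76.8 CPM of STMN2 and 31.7 CPM of TBR1. In D70 control, libraries 1 and 2 held 46.0 and 44.2 CPM of STMN2 and 49.0 and 3.86 CPM of TBR1. BCL11B was higher in libraries 2, at 34.4 and 131 CPM in D70 TMG and 20.1 and 38.6 CPM in D70 control. On D70, 6 of the 9 pan-neuronal and 5 of the 8 deep-layer markers were lower in both libraries 2 than in both libraries 1, and 1 of each list was higher in both. The sum of the 8 deep-layer markers was 92.7 to 208 CPM on D0, 341 to 436 CPM on D12, 192 to 334 CPM on D30 and 156 to 284 CPM on D70. TBR1 made up little of the D12 sums, at 0.246 to 0.623 CPM. On D30 TBR1 stood at 6.01 and 2.36 CPM in control and 11.5 and 30.2 CPM in TMG. On D30, 6 of the 8 deep-layer and 6 of the 9 pan-neuronal markers were higher in both TMG libraries than in both controls, and 1 of each list was lower in both. Of all genes tested, 23.1% were higher in both TMG libraries on D30. Of 9 striatal projection neuron markers, the sum was 33.4 and 38.1 CPM in D30 control and 98.0 and 2286 CPM in D30 TMG, and 6 of the 9 were higher in both TMG libraries. PENK, which encodes proenkephalin, made up 2181 CPM of the last value. Purkinje and hindbrain markers summed to 13.3 to 106 CPM and motor neuron markers to 0.680 to 36.4 CPM. The sum of 8 endoderm and lung markers was 269 to 427 CPM on D0, 25.2 to 148 CPM on D12 and 15.2 to 35.2 CPM on D30, with FOXA2 and SOX17 at 0 counts in both D30 groups and 3 of the 8 higher and 1 lower in both D30 TMG libraries than in both controls. On D70 it was 125 and 393 CPM in the libraries numbered 2 of control and TMG, and 23.9 and 29.7 CPM in those numbered 1, with 4 of the 8 higher in both libraries 2 and 0 lower. The sum of 8 neural progenitor markers was 602 to 946 CPM on D0, 1537 to 1917 CPM on D12 and 2491 to 3552 CPM on D30, where 4 of the 8 were lower in both TMG libraries than in both controls and 0 higher. On D70 it was 3724 and 4716 CPM in libraries 1 of control and TMG against 2382 and 1759 CPM in libraries 2, where FOXP4 was also lower, and 5 of the 8 were lower in both libraries 2 and 0 higher. The 8 pluripotency markers fell from 4056 to 4751 CPM on D0 to 9.58 to 19.5 CPM on D70, and on D30 were at 42.7 to 68.3 CPM in control and 50.4 to 109 CPM in TMG. Shares over all genes are not given here for libraries 2 against libraries 1, or for TMG below control. Those marker counts therefore stand without a background. The part of any of these cell types in the FOXP values was not tested.

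Proteins through which FOXP factors act were followed as a list of 20 partners, all of which passed the filter. In the control cells 4 rose and 3 fell from D0 to D12, where 6.97% of genes rose and 9.71% fell. NR2F1 and NR2F2, nuclear receptors of regional patterning, went from 2.66 and 9.93 CPM to 119 and 131 CPM and from 2.29 and 10.4 CPM to 398 and 380.5 CPM (4.32 ± 1.02 and 5.94 ± 0.92 on the log2 scale). PIAS1, a SUMO ligase that acts on FOXP2, rose by 1.01 ± 0.23. The corepressor CTBP2 went the other way, from 188 and 164 CPM to 75.9 and 95.9 CPM (-1.04 ± 0.29), and so did the deacetylase HDAC2 (-0.78 ± 0.16). From D0 to D30 the counts were 4 higher and 8 lower (14.0% and 16.7% of genes). From D0 to D70 they were 3 and 6 (15.0% and 14.7%), CHD3, a NuRD helicase, rising from 68.8 and 75.4 to 243 and 263 CPM (1.81 ± 0.49) and GATAD2A falling (-1.12 ± 0.18). The median log2 change over the 20 was -0.31, 0.096 and -0.020 in these comparisons, beside 0.0033, -0.020 and 0.027 over all genes tested.

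In the TMG cells the partners gave 4 higher and 2 lower from D0 to D12 (7.24% and 9.19% of genes), 5 and 5 from D0 to D30 (13.4% and 14.4%), and 3 and 7 from D0 to D70 (14.9% and 14.1%). SOX5, which like FOXP2 marks deep-layer neurons, rose from D0 to D12 (2.39 ± 0.58), from 16.2 CPM in both libraries to 59.7 and 110.6 CPM. Against control, 0 of the 20 passed at any stage by edgeR. DESeq2 called 1 of them higher on D30, where it called 2.46% of all genes. Low p-values on D30 belonged to NR2F1 (119.7 and 35.7 CPM in TMG against 347 and 421 CPM in control, adjusted p = 0.363) and CTBP2 (58.6 and 112 against 46.0 and 58.9 CPM, adjusted p = 0.369). NR2F1 had the lowest on D70 (106 and 18.8 against 439 and 159 CPM, unadjusted p = 0.0323, adjusted p = 0.894), followed by SATB1 and MTA2. On D12 the lowest were CHD3, SATB1 and PIAS3, and low values on D0 were those of HDAC2 and PIAS3, each with an adjusted p of 1.0.

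A list of 20 genes described as targets of FOXP factors also passed the filter whole. It joins 2 kinds of gene, 5 of the stem cell state (POU5F1, NANOG, NR5A2, GDF3 and TDGF1) and 15 of neural development. From D0 to D12 in control, 3 rose and 8 fell (6.97% and 9.71% of all genes tested). POU5F1 went from 824 and 893 CPM to 0.541 and 0.766 CPM, NANOG from 94.7 and 86.0 to 0.344 and 0.547 CPM, TDGF1 from 320.0 and 315 to 0 and 0.219 CPM, NR5A2 from 13.7 and 19.4 to 0.246 and 0.219 CPM, and GDF3 from 3.77 and 3.57 CPM to 0 in both. From D0 to D30 the counts were 2 higher and 7 lower (14.0% and 16.7% of genes), and from D0 to D70 6 higher and 5 lower (15.0% and 14.7%), the last 5 being the stem cell genes. Between D12 and D30, NFIA and NFIB, factors of the switch to gliogenesis, were the 2 targets that passed, in control from at most 1.23 CPM in both libraries to 14.6 and 56.6 CPM (4.87 ± 0.92) and from 0.737 and 0.712 to 13.4 and 28.4 CPM (4.84 ± 0.78), where 1.91% of genes rose. In TMG they also rose, to 86.7 and 354 CPM and to 31.8 and 198 CPM, together with POU5F1 (0.468 and 0.373 to 9.13 and 5.49 CPM), where 0.388% of genes rose. SRPX2, a synapse-promoting secreted protein that FOXP2 represses, went in control from 0 and 0.210 CPM on D0 to 5.40 and 14.6 CPM on D70, and in TMG from 0.0686 and 0.0515 to 1.98 and 28.4 CPM.

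Of these targets, 0 of 20 passed TMG against control at any stage by edgeR. On D30, 7 had an unadjusted p under 0.05, all higher in TMG, as did 7.10% of all genes tested, and the median of the list was 0.96 on the log2 scale beside 0.011 over all genes. The 3 lowest were POU5F1 (9.13 and 5.49 CPM in TMG, 0.0940 and 0.401 CPM in control, adjusted p = 0.0868), NANOG (1.07 and 1.23 against 0.188 and 0.151 CPM, adjusted p = 0.155) and TDGF1 (4.76 and 1.23 against 0.0940 and 0.251 CPM, adjusted p = 0.194). The control values of these 3 genes, at most 0.401 CPM, lie near the floor of the counts. This limits their folds, which the median of the list includes. On D0 the lowest were SLIT1, GDF3 and NR5A2 and on D12 NFIA, JAG1 and MET, each with an adjusted p of 1.0, and on D70 NR5A2, JAG1 and MET (adjusted p from 0.843 to 0.913). JAG1, a Notch ligand, was at 227 and 143 CPM in TMG against 424 and 305 CPM in control on D12, and at 181 and 163 against 92.1 and 32.9 CPM on D70.

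MBNL proteins are splicing factors known to favour the differentiated over the stem-cell forkhead exon of FOXP1. MBNL2 rose from D0 to each later stage in both arms, in control from 4.26 and 10.9 CPM to 68.2 and 67.1 CPM on D12 (3.16 ± 0.37, adjusted p = 0.000896), 147 and 123 CPM on D30 and 103 and 89.3 CPM on D70. MBNL1 rose in TMG from D0 to D70 (31.3 and 32.8 to 52.9 and 147 CPM, 1.64 ± 0.52, adjusted p = 0.0365) and in control from D12 to D70 (17.3 and 21.1 to 45.8 and 90.8 CPM, 1.83 ± 0.52, adjusted p = 0.0475), where 6.44% of genes rose. MBNL3 passed in no comparison and was higher in both TMG libraries of D12 than in both controls (156 and 101 against 30.2 and 40.5 CPM, adjusted p = 1.0). Use of the FOXP1 exons themselves was not measured.

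The genes whose log2 CPM followed each member most closely over the 16 libraries were ranked by Pearson's r, given as a description only, since libraries of a stage share their stage and number. For FOXP1 they were CACNA1C (r = 0.971), which encodes an L-type calcium channel subunit, SNX18 (0.925), CARMN (0.923), BLID (0.920) and THBS1 (0.916), which encodes thrombospondin. All 5 were highest in D30 TMG library 2, as FOXP1 was. For FOXP2 they were ZCCHC24 (0.941), IFI16 (0.940), TAMALIN (0.932), ISLR (0.928) and FBXL7 (0.926), each highest in D30 TMG 2, D70 control 2 or D70 TMG 2. For FOXP4 they were ZNF521 (0.962), a zinc finger factor of early neural cells, MEIS3 (0.958), PCDHB11 (0.953), RSPO1 (0.953) and DNAH10OS (0.948), 4 of them highest in D30 control library 2. Between members, r was 0.823 for FOXP1 and FOXP2, 0.662 for FOXP1 and FOXP4 and 0.322 for FOXP2 and FOXP4.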

How the data were processed

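RNA of 16 H9 libraries was depleted of ribosomal RNA and sequenced. Per the submitters' processing notes and the study's methods, the authors aligned reads with Bowtie2 to hg19 and deposited expected counts per Ensembl gene (GRCh37.p13) from RSEM 1.2.12, as whole numbers, not normalized. How they were rounded is not stated. Counts were tested with edgeR 4.0.16 (R 4.3.3): TMM scaling, filterByExpr (minimum count 10, minimum total count 15), 8 group means over 16 libraries with 8 residual degrees of freedom, a robust quasi-likelihood F-test, and Benjamini-Hochberg adjustment over the 24249 genes kept, at 5%. Levels are CPM on TMM library sizes. The SE comes from the fold change and its F statistic. With 2 replicates per group, each gene has 1 spread, shared over the 8 groups and moderated across genes. It is not the spread of the compared groups alone. The p-values measure only this spread between these libraries. The study calls them biological replicates without saying whether they were separate differentiations, and PCR duplicates carry no molecular identifiers. The study used DESeq2, run here (1.42.0) as an alternative.

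Members and lists were chosen with earlier results of these data known. The rule for named genes takes from partners and targets up to 5 passing genes with the largest change per comparison (in TMG comparisons without one, the 3 with the lowest p), and from other forkhead genes the 3 largest rises and 3 largest falls per stage comparison. The likeness measure takes the 5 named genes with the highest r (prior count 2). Transcript lengths, spans and starts come from GENCODE v44 lifted to GRCh37, which is not the release the authors used. The tests were checked on simulated data. Alternatives were RLE scaling, no filter, DESeq2, a replicate block, fits of the 4 libraries compared and each library left out. Of 57736 genes, 2235 had no name and were named in no result. Some genes that the rule names, and a sequence comparison, are not reported here.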

Additional observations from a re-analysis of the deposited data

How the results depend on the processing

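Each value is a log2 difference. Across 12 TMG effects, 36 stage differences and 9 interactions, 69 of 72, 177 of 198 and 35 of 36 values under other settings kept direction and side of the threshold, as did 38 of 48, 116 of 144 and 63 of 72 with 1 library left out. In the cases that follow the cause was not tested. DESeq2 made calls that edgeR did not, for FOXP2 TMG on D30 (3.75), FOXP1 TMG D30 over D12 (1.57), FOXP2 control D70 over D0, D12 and D30 (3.22, 3.98 and 3.28), and TMG D70 over D0 for FOXP2 and FOXP4 (3.84 and 1.12). RLE (1.12) and leaving out both D70 libraries numbered 2, chosen after seeing the data (1.42), also made the FOXP4 call. Only the 4 libraries compared gave calls for TMG D12 over D0 of FOXP1 (0.84) and FOXP2 (2.16) and lost FOXP2 TMG D30 over D0 (4.40). Without the filter that call (4.34) and FOXP4 TMG D12 over D0 (1.24) were lost. Leaving out both D70 libraries numbered 2 reversed FOXP1 control D70 over D30 (-0.015), the FOXP2 TMG effect on D70 (0.69) and FOXP4 D70 over D12 in control (0.13) and TMG (0.20).

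The differences between libraries 1 and 2 correlated between arms over 24249 genes, at 0.0453 for D0 cells, 0.367 for D12, 0.223 for D30 and 0.607 for D70, with 3 of the 4 stages correlated. The rule for pairs asked for a correlation at every stage, which D0 did not show, so the fit without a block was kept. With the replicate number as a block, FOXP2 passed for control D70 over D0 (2.97) and D12 (3.44) and TMG D70 over D0 (3.34), FOXP4 TMG D12 over D0 did not (1.24), and FOXP2 TMG on D70 (0.19), FOXP2 control D30 over D0 (0.051) and the FOXP4 D70 minus D30 interaction (-0.032) changed sign. The block called 233 genes for TMG on D30 and 1 on D70, against 0, and D30 also had 175 without D30 TMG library 1, 254 without the D70 libraries and 21 without the filter. D70 had 799 without D70 TMG library 1, 13 without D70 control library 1, 10 without both libraries numbered 2, and 3 each without D70 TMG library 2 and without the filter.

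With 1 library left out, TMG effects ran from -0.81 to 0.23 (FOXP1 D0), -1.25 to 0.40 (FOXP2 D0), -1.21 to 1.84 (FOXP2 D70), and for FOXP4 -0.29 to 0.18 (D12), -0.51 to 0.35 (D30) and -0.54 to 0.20 (D70). Control stage differences ran from -0.27 to 0.76 (FOXP1 D12 over D0), -0.047 to 0.54 (FOXP1 D70 over D30), -1.33 to 0.31 and -0.63 to 1.01 (FOXP2 D12 and D30 over D0), and for FOXP4 1.49 to 2.26 (D12 over D0), 1.38 to 2.15 (D70 over D0) and -0.36 to 0.14 (D70 over D12). In TMG they ran for FOXP1 from 1.44 to 1.67 (D70 over D0), 0.73 to 2.06 (D30 over D12) and -1.32 to 0.017 (D70 over D30), for FOXP2 from 1.04 to 5.25 (D30 over D0), 2.66 to 4.40 (D70 over D0), -1.10 to 3.31 (D30 over D12) and -1.67 to 2.74 (D70 over D30), and for FOXP4 from 1.13 to 1.33 (D12 over D0), 0.66 to 1.41 (D70 over D0) and -0.57 to 0.17 (D70 over D12). Interactions ran from -1.79 to 2.60 (FOXP2 D30 minus D12), -0.43 to 0.42 and -0.47 to 0.39 (FOXP4 D30 minus D12 and D70 minus D30).

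For TMG on D30, DESeq2 called 5 targets, 1 partner and 3 other forkhead genes and no filter 2 targets, against 0, where DESeq2 called 2.46% of all genes. For control D30 over D0 DESeq2 called 5 targets higher against 2 (17.2% of all genes by DESeq2), and for control D70 over D0 5 partners higher against 3 (18.7%). Without the filter 2 partners rose on D12 against 4 in each arm (2.97% of 43143 genes in control and 3.21% in TMG), and 3 on D30 against 5 in TMG (5.77%), while from D12 to D30 in control 1 target rose against 2 (1.08%). Of other forkhead genes DESeq2 called 8 lower on D12 against 5 (12.9%) and 6 higher on D70 against 2 (18.7%) in control, and 8 higher on D70 against 4 in TMG (19.1%). FOXP2 counts of 16 to 58 in the libraries of D0 and of D12 and D30 control limit its folds there.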

Other observations

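The count table held 42 other forkhead genes, FOXP3 among them, of which 34 passed the filter. By edgeR more of them passed as falls than as rises between D0 and each later stage. In control, 2 rose and 5 fell from D0 to D12, 2 rose and 10 fell from D0 to D30, and 2 rose and 10 fell from D0 to D70, beside 6.97% and 9.71%, 14.0% and 16.7%, and 15.0% and 14.7% of genes. DESeq2 called 6 higher and 10 lower from D0 to D70, and 17 of the 34 had the higher fitted level on D70. FOXH1, a SMAD partner of the stem cell state, fell from 56.9 and 48.6 CPM on D0 to 0.491 and 0.985 CPM on D12 and stayed under 1 CPM later. FOXD3, also known from stem cells and neural crest, stood at 24.8 and 61.5 CPM on D0, at 9.83 and 17.7 CPM on D12 and at 0 and 0.100 CPM on D30. Between D12 and D30 in control it fell together with FOXM1, a factor of cell division, which went from 48.0 and 52.7 CPM to 10.3 and 13.2 CPM (-2.09 ± 0.43 on the log2 scale, adjusted p = 0.0274 by edgeR). FOXK1 rose from D0 to D12 in both arms (1.50 ± 0.26 in control and 0.88 ± 0.26 in TMG).

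In TMG, 5 forkhead genes rose and 11 fell from D0 to D30 (13.4% and 14.4% of genes). The 3 largest rises were FOXF2 (0 and 0.155 CPM to 0.874 and 16.6 CPM), FOXC1 (6.52 and 5.15 to 8.84 and 205 CPM) and FOXC2 (0.412 and 0.258 to 0.777 and 9.65 CPM), all factors known from mesenchyme, and each was highest in D30 TMG library 2, the library highest in FOXP1 and FOXP2. From D0 to D70 in TMG, FOXQ1, FOXO6 and FOXJ2 were the largest of 4 rises, beside 11 falls (14.9% and 14.1% of genes). Against control 0 of the 34 passed at any stage by edgeR, 7 having an unadjusted p under 0.05 on D30, 5 of them higher in TMG, as were 7.10% of all genes tested.

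FOXP1-IT1, the intronic transcript on the strand of FOXP1, held 11.9% to 19.5% as many counts as FOXP1 on D0, D12 and D30 and 7.25% to 10.7% on D70. The D30 and D70 ranges do not meet, and no test was made of this ratio.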
